A study of Mus musculus with 9 samples.

Results

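The genes described here store, sense and move zinc in the mouse egg: the 4 metallothioneins Mt1, Mt2, Mt3 and Mt4, the zinc-sensing transcription factor Mtf1, the zinc exporters Slc30a1 and Slc30a9, and the zinc importers Slc39a1, Slc39a6 and Slc39a10. Members were the probe sets whose platform annotation names exactly 1 of these 10 symbols, which gave 11 of the 35557 probe sets and 10 of the 19938 genes of the value table. Transcript levels were measured with 9 arrays of ovulated eggs arrested at metaphase II, where they wait for fertilization. Oocytes labelled Dgcr8 knockout, oocytes labelled Dicer knockout and wild-type oocytes were each measured as 3 biological replicates. Every group was of strain C57BL/6. All females received 7.5 IU of PMSG, a gonadotropin that stimulates follicle growth, and later 7.5 IU of hCG, which triggers ovulation, eggs were collected 14 to 16 h after hCG, and 0.3 mg/ml hyaluronidase removed the cumulus cells. How the knockouts were made, any transgene they carry, the females' age and how many eggs were pooled per array are not given in the sources read for this work.

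Zinc is a regulator of the female meiotic cell cycle in the mouse. The maturing oocyte takes zinc up, needs it to hold the arrest at metaphase II, and releases part of it after fertilization. Metallothioneins are small cysteine-rich proteins that bind zinc and copper. In mammalian cells free zinc activates Mtf1, which binds metal response elements in the promoters of Mt1, Mt2 and Slc30a1 and raises their transcription, so these genes are often read together. Dgcr8 is needed to make most microRNAs, and Dicer to make microRNAs and endogenous small interfering RNAs. The comparison asks whether the rise of Mt1 in both knockouts comes with any other change in zinc handling. That rise was known when the members were chosen.

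The promoters of Mt1 and Mt2 are shown because these neighbouring genes are the usual joint targets of Mtf1, whereas their probe sets behaved differently here. The sequences are the RefSeq promoters of build GRCm38.p6, plus strand, 5′ to 3′, up to the start that the promoter table uses, and capitals mark matches to the core of the metal response element, searched as TGCACNC and TGCGCNC on both strands. Mt1 is shown for chr8:94178839-94179088, with a second stretch just past that start, chr8:94179089-94179117, since 2 of its 3 matches lie there. The RefSeq gene span of Mt1 begins earlier, at position 94178883, so that most of the first stretch lies inside the gene span, and the start used in eggs is not known here. Mt2 is shown for chr8:94172368-94172617.
Mt1: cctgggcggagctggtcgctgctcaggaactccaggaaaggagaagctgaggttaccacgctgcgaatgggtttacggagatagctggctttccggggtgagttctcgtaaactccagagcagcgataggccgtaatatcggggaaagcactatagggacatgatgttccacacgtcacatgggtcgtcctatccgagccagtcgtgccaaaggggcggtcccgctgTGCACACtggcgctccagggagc
Mt1 past the start: tcTGCACTCcgcccgaaaagTGCGCTCgg
Mt2: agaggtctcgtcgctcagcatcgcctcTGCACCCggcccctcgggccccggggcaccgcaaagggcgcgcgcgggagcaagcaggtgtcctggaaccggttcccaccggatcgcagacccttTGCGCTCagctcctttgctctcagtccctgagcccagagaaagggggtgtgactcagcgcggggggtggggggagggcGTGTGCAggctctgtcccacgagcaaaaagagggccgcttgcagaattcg

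In the whole window of 250 bases before to 50 bases after the start in the promoter table, Mt1 held 3 matches and Mt2 held 4. Because the start used for Mt1 in eggs is not known here, its window may leave out other matches. The counts of Mt1 and Mt2 may therefore not cover like stretches of the promoter. Slc30a1 held 2, and Mt3 and Mt4 held 1 each. Mtf1, Slc30a9, Slc39a1 and Slc39a10 held none, and Slc39a6 was not searched. At least 1 match was present in 25.7% of all 32851 RefSeq promoters of that length, and 3 or more in 1.97%. The core of the antioxidant response element, another element known from metallothionein promoters and searched as TGACNNNGC on both strands, was present in the same window in 3 of the 9 members searched, namely Mt2, Slc30a1 and Slc39a1, against 12.4% of all promoters. For Mt1 this says only that the window held no match, since sequence beyond the window was not searched. A match is a run of letters and was not tested for binding.

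The labels were first checked on the targeted genes. Dgcr8 averaged 5.71 ± 0.26 in Dgcr8 knockout oocytes, 8.46 ± 0.23 in Dicer knockout oocytes and 8.96 ± 0.10 in wild-type oocytes (log2 signal, SD, n = 3 each). Dicer1 averaged 11.68 ± 0.06, 10.72 ± 0.13 and 11.67 ± 0.01 in the same order (log2 signal, SD, n = 3 each). Dgcr8 thus fell to 0.106 of the wild-type signal in the Dgcr8 knockout, and Dicer1 only to 0.517 in the Dicer knockout. Dgcr8 was also lower in all 3 Dicer knockout arrays than in the wild-type arrays. That difference of -0.50 missed the threshold (limma adjusted p 0.0644) and was called in 4 of 17 alternatives. All values are log2 signals, and differences are differences of log2 signal. They are relative to the other signals of an array, since the arrays were normalized to each other. A change in total RNA per egg would therefore not show, and the amount of a transcript per egg is not known. Of the probe sets of the table, 44.8% carry an identical value in at least 2 of the 9 arrays, and so do 7 of the 11 member probe sets, which makes the spread of such probe sets look smaller than an independent reading of each array would. Among the 7 are Mt1, with 11.46 repeated in 2 Dgcr8 knockout arrays, and Slc39a10, with 11.62 in a wild-type and a Dgcr8 knockout array.

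The Mt1 probe set read far higher in both knockouts, and Mt1 was the only member called in eggs without Dgcr8. The probe set could also read RNA of a transgene that carries Mt1 sequence, such as the Mt1 polyadenylation region used in some Cre constructs. Whether these knockouts carry one is not given and was not tested, so that endogenous Mt1 transcript and such RNA cannot be told apart in any Mt1 value below. The Mt1 probe set (10574027, Entrez gene 17748) read 11.46, 11.53 and 11.46 in Dgcr8 knockout oocytes, 11.44, 11.66 and 11.73 in Dicer knockout oocytes, and 7.95, 8.07 and 8.16 in wild-type oocytes. All 6 knockout arrays lay above all 3 wild-type arrays, and the lowest knockout array was 3.27 above the highest wild-type array, whereas the 6 knockout arrays together spanned 0.29. The Mt1 signal was 10.7-fold higher in Dgcr8 knockout than in wild-type oocytes, a log2 difference of 3.42 ± 0.08 (SE; limma adjusted p 2.94e-08). It was 11.7-fold higher in Dicer knockout than in wild-type oocytes, a difference of 3.55 ± 0.08 (SE; limma adjusted p 2.04e-08). Both comparisons use the same 3 wild-type arrays.

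In each comparison Mt1 had the smallest p of the 17324 genes tested. It ranked 2 by size of change in the Dgcr8 knockout and 7 in the Dicer knockout. The rise did not differ detectably between the knockouts: the Dicer knockout minus Dgcr8 knockout difference was 0.13, with a 95% interval from -0.05 to 0.31 and a limma adjusted p of 0.378. Mt1 was also the only gene called in the same direction in both knockouts, 1 of 17324 or 0.00577%. A single probe set reads Mt1, and it measures every RNA that its probes match. The positions of its probes in the transcript are likewise not given.

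**Figure D1:**
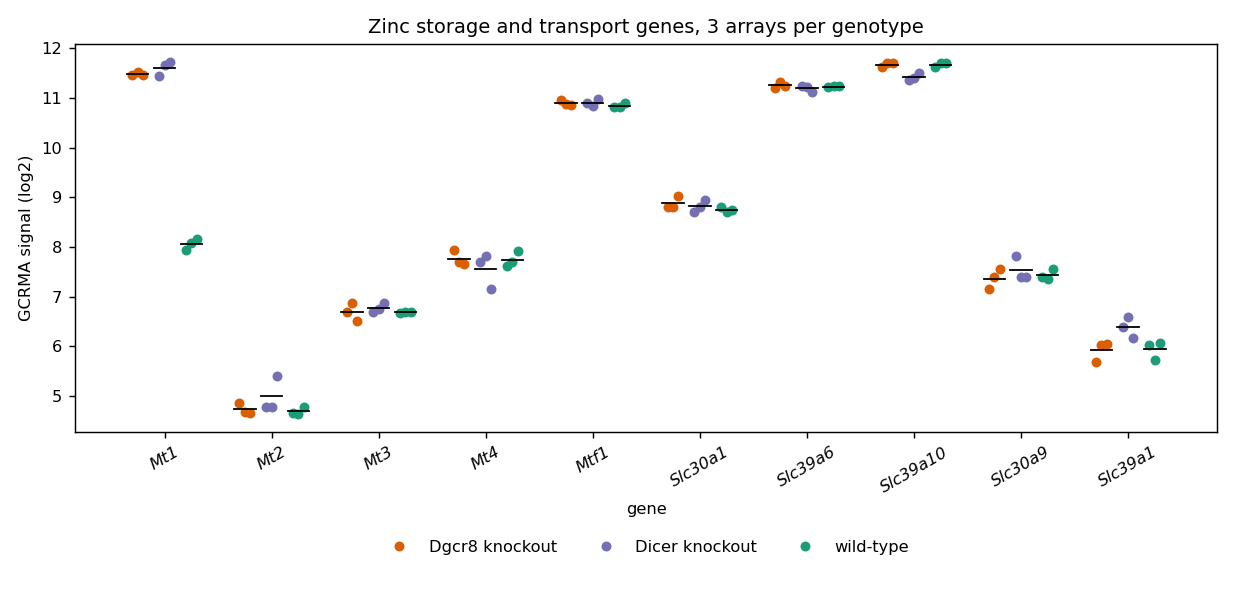
Log2 GCRMA signal (vertical axis) of the 10 zinc genes (horizontal axis) in each array, with 3 points per genotype and the group mean as a black bar. Mt1 sits between 11.44 and 11.73 in the 6 knockout arrays and between 7.95 and 8.16 in the wild-type arrays, and no other member has a gap of that kind.

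Mt2, the metallothionein that is usually induced together with Mt1, did not pass the test in either knockout. Its signal was 4.86, 4.68 and 4.66 in Dgcr8 knockout oocytes, 4.79, 4.79 and 5.41 in Dicer knockout oocytes, and 4.66, 4.63 and 4.79 in wild-type oocytes. The groups overlapped, and the signal lay close to the value of 4 that served as the floor for testing, so that a rise of a transcript that stays under the detection range of this probe set would not show. The log2 difference was 0.04 in the Dgcr8 knockout, with a 95% interval from -0.30 to 0.38, and 0.30 in the Dicer knockout, with an interval from -0.04 to 0.64 (limma adjusted p 1 and 0.276). The second of these rests on Dicer knockout replicate 3, since it was 0.09 without that array.

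Mt3 and Mt4 are known mainly from brain and from stratified epithelia. Mt3 read 6.70, 6.88 and 6.51 in Dgcr8 knockout oocytes, 6.70, 6.74 and 6.88 in Dicer knockout oocytes, and 6.68, 6.70 and 6.70 in wild-type oocytes. The value of 6.70 is the same reading in 4 arrays. Mt4 read 7.94, 7.69 and 7.66 in Dgcr8 knockout oocytes, 7.70, 7.82 and 7.15 in Dicer knockout oocytes, and 7.63, 7.69 and 7.93 in wild-type oocytes. All groups overlapped for both genes. The log2 differences of Mt3 and Mt4 were 0.003 and 0.01 in the Dgcr8 knockout (limma adjusted p 1 for both), and 0.08 and -0.19 in the Dicer knockout (0.742 and 0.581). The Mt4 value again rested on Dicer knockout replicate 3, and was 0.01 without it.

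Mtf1, the sensor that drives metallothionein transcription, read 10.97, 10.88 and 10.86 in Dgcr8 knockout oocytes, 10.90, 10.84 and 10.99 in Dicer knockout oocytes, and 10.82, 10.83 and 10.89 in wild-type oocytes. The groups overlapped, and the log2 differences were 0.06 in each knockout (95% intervals -0.06 to 0.17 and -0.05 to 0.18). Slc30a1, which exports zinc across the plasma membrane and is itself a target of Mtf1, read 8.81, 8.81 and 9.02 in Dgcr8 knockout oocytes, 8.71, 8.81 and 8.95 in Dicer knockout oocytes, and 8.81, 8.70 and 8.74 in wild-type oocytes. Its differences were 0.13 and 0.07, with intervals from -0.07 to 0.33 and from -0.13 to 0.27. Neither gene passed the test in any comparison. The transcript of Mtf1 says nothing of how much Mtf1 protein was bound to DNA.

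**Figure D2:**
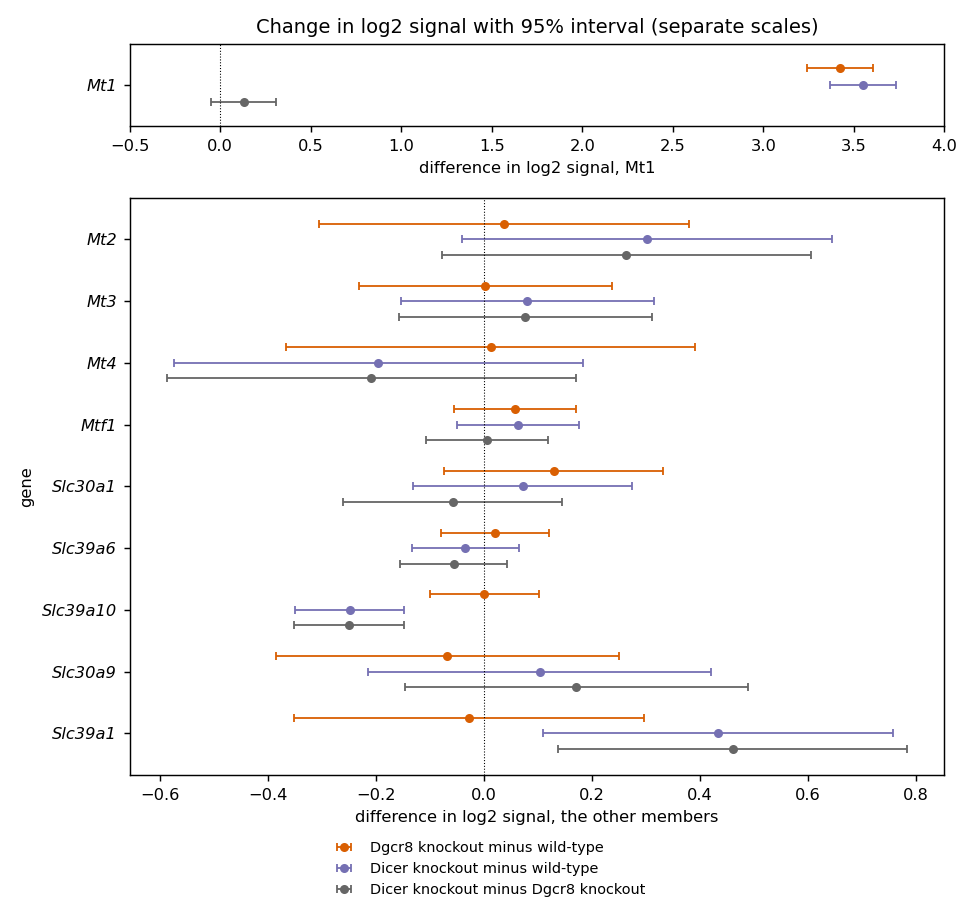
Difference in log2 signal (horizontal axes, with Mt1 on its own scale above) for each member, as points with 95% intervals from the limma fit, for Dgcr8 knockout minus wild-type, Dicer knockout minus wild-type and Dicer knockout minus Dgcr8 knockout. Apart from Mt1, the interval of Slc39a10 lies wholly below 0, and that of Slc39a1 wholly above 0, in both comparisons of the Dicer knockout.

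Slc39a10, an importer that takes part in zinc uptake by the maturing mouse oocyte, was slightly lower in Dicer knockout oocytes. Its probe set (10354389) read 11.62, 11.71 and 11.70 in Dgcr8 knockout oocytes, 11.36, 11.41 and 11.50 in Dicer knockout oocytes, and 11.62, 11.70 and 11.70 in wild-type oocytes. All 3 Dicer knockout arrays lay below the other 6 arrays. Slc39a10 fell by 0.25 ± 0.05 (SE) on the log2 scale in the Dicer knockout, to 0.842 of the wild-type signal (limma adjusted p 0.00609). In the Dgcr8 knockout its difference was 0.001, with a 95% interval from -0.10 to 0.10. The 2 knockouts differed from each other by -0.25 (Dicer knockout minus Dgcr8 knockout, limma adjusted p 0.00550). Slc39a6, the importer that acts with Slc39a10 in oocytes, read 11.20, 11.32 and 11.24 in Dgcr8 knockout oocytes, 11.24, 11.23 and 11.13 in Dicer knockout oocytes, and 11.22, 11.24 and 11.24 in wild-type oocytes. Its differences were 0.02 in the Dgcr8 knockout and -0.03 in the Dicer knockout, and neither passed the test.

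Slc39a1, an importer of the plasma membrane, has 2 probe sets that disagreed. The brighter one (10493709) read 5.68, 6.04 and 6.04 in Dgcr8 knockout oocytes, 6.40, 6.58 and 6.16 in Dicer knockout oocytes, and 6.04, 5.73 and 6.07 in wild-type oocytes. All Dicer knockout arrays lay above all the others on that probe set, but the difference of 0.43 ± 0.15 (SE) from wild-type missed the threshold (limma adjusted p 0.0905, and 0.0524 to 0.279 over the alternatives). The other probe set (10470948) read 5.90 in each of the 3 Dgcr8 knockout arrays, 5.81, 5.88 and 5.97 in Dicer knockout oocytes, and 5.63, 5.90 and 6.06 in wild-type oocytes, a Dicer knockout minus wild-type difference of 0.02 ± 0.11 (SE). Slc30a9, a transporter of mitochondrial zinc export, read 7.15, 7.39 and 7.55 in Dgcr8 knockout oocytes, 7.82, 7.39 and 7.40 in Dicer knockout oocytes, and 7.40, 7.35 and 7.55 in wild-type oocytes. Its groups overlapped and its differences were -0.07 and 0.10 (limma adjusted p 1 and 0.755).

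Counted together, all 10 members passed the filter on low signal, which asked for a log2 signal of at least 4 in at least 3 of the 9 arrays. In the Dgcr8 knockout 1 of 10 members was called, against 0.0231% of all genes tested, and that member was Mt1, which was higher, as were 0.0173% of all genes. Since the rise of Mt1 was known when the members were chosen, that share is not a result about the set. None of the 9 other members was called in the Dgcr8 knockout. Their median difference was 0.01, against -0.003 for all genes tested, and their 95% intervals lay between -0.39 and 0.39, which correspond to folds between 0.766 and 1.31. In the Dicer knockout 2 of 10 members were called, Mt1 higher and Slc39a10 lower, against 11.3% of all genes tested. Against the Dgcr8 knockout, the Dicer knockout had 1 of 10 members called, Slc39a10, which was lower, with 13.4% called over all genes tested and 7.92% called lower. With Mt1 set aside, the 1 in 9 called in each comparison of the Dicer knockout is near the shares over all genes. Groups did not overlap for 1 member in the Dgcr8 knockout, against 6.54% of all genes (3.52% higher and 3.02% lower). They did not overlap for 3 members in the Dicer knockout against wild-type, Mt1 and Slc39a1 higher and Slc39a10 lower, against 26.2% of all genes (10% higher and 16.1% lower). Between the knockouts they did not overlap for Slc39a1, higher in the Dicer knockout, and Slc39a10, lower, against 26.1% of all genes (10.2% higher and 15.9% lower).

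The remaining genes of both transporter families were read in the same way. Most Slc30 proteins move zinc out of the cytosol into vesicles, organelles or the outside, and most Slc39 proteins move it in. With the 5 transporters above, 24 family members were on the array, and all 24 passed the filter. None of the 24 was called in the Dgcr8 knockout by limma, where 0.0231% of all genes were called. There 1 of the 24 had an unadjusted p under 0.05, against 2.64% of all genes. That gene was Slc30a7 (0.0314), a transporter of the secretory pathway with a difference of 0.33 and a limma adjusted p of 1. In the Dicer knockout 2 of 24 were called, both lower, namely Slc39a10 and Slc30a4, against 11.3% of all genes. The median difference of the 24 was 0.03 in the Dgcr8 knockout and -0.01 in the Dicer knockout, and that of all genes was -0.003 and -0.03.

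Slc30a4, which loads zinc into vesicles and is best known from milk secretion, read 9.46, 9.56 and 9.59 in Dgcr8 knockout oocytes, 9.25, 9.19 and 9.43 in Dicer knockout oocytes, and 9.75, 9.71 and 9.43 in wild-type oocytes. It fell by 0.34 ± 0.10 (SE) in the Dicer knockout, and its limma adjusted p of 0.0488 sits at the threshold. The call was lost in 12 of the 17 alternatives, among them without any 1 Dgcr8 knockout array (0.0632 to 0.0736), with Dicer knockout replicate 1 (0.132) or 2 (0.123) left out, and with wild-type replicate 1 (0.169) or 2 (0.160) left out. The largest difference of the family, -0.63, was that of Slc30a3, which fills synaptic vesicles with zinc. Slc30a3 read 11.54, 11.25 and 11.29 in Dgcr8 knockout oocytes, 11.34, 10.19 and 10.95 in Dicer knockout oocytes, and 11.51, 11.52 and 11.33 in wild-type oocytes. Its Dicer knockout arrays differed by more than 1 among themselves, and it did not pass the test (limma adjusted p 0.116).

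**Figure D3:**
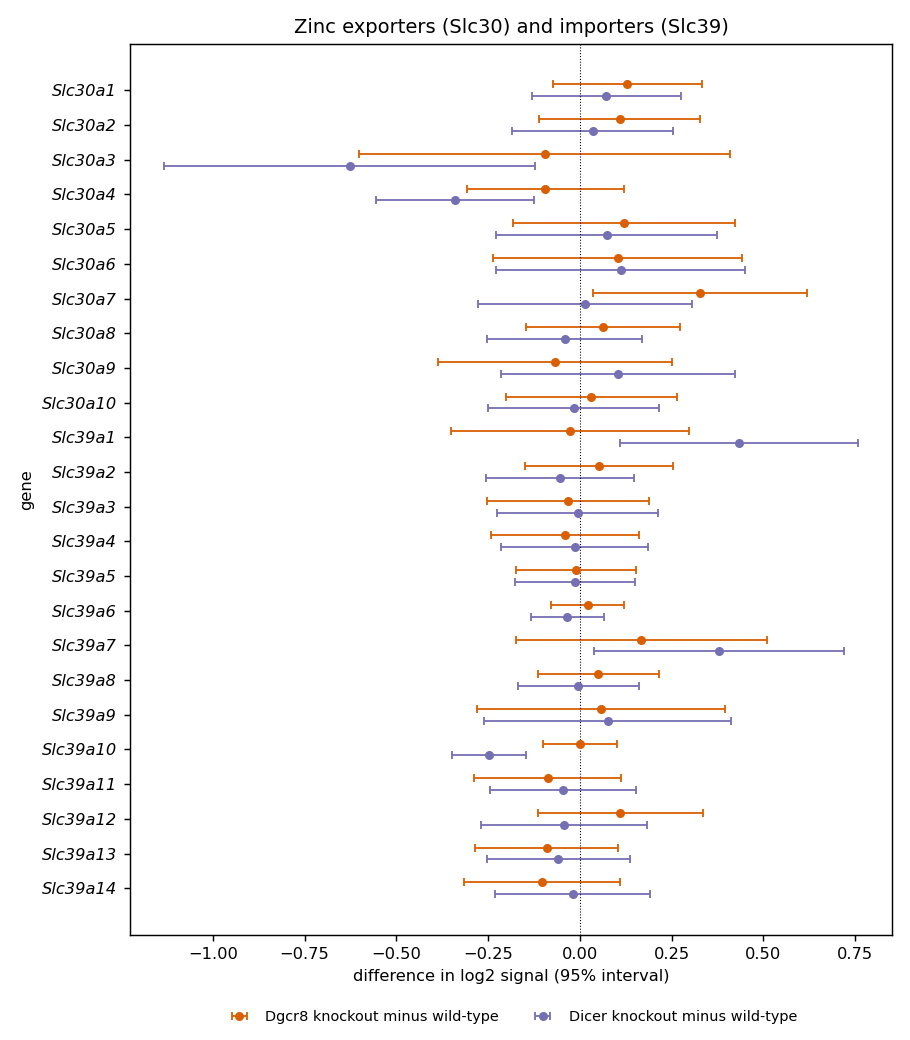
Difference in log2 signal (horizontal axis, with 95% intervals) of the 24 zinc transporter genes (vertical axis) in each knockout against wild-type. Most points lie close to 0, and the called genes are Slc39a10 and Slc30a4, both lower in Dicer knockout oocytes.

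The tested genes on either side of the metallothionein cluster had smaller differences than Mt1. Among the genes tested, Mt4, Mt3, Mt2 and Mt1 follow each other in RefSeq gene order, between Bbs2, a protein of the ciliary BBSome, and Nup93, a nuclear pore protein. Nup93, the nearest tested gene beyond Mt1, read 10.37, 10.52 and 10.58 in Dgcr8 knockout oocytes, 10.40, 10.34 and 10.45 in Dicer knockout oocytes, and 10.46, 10.50 and 10.46 in wild-type oocytes. Bbs2, on the far side of the cluster, averaged 7.93, 7.64 and 7.80 in Dgcr8 knockout, Dicer knockout and wild-type oocytes. Of the 6 tested neighbours on each side, which on the Mt4 side were Bbs2, Ogfod1, Nudt21, Gnao1, Ces5a and Ces1g and on the other Nup93, Mir138-2, Slc12a3, Herpud1, 9330175E14Rik and Nlrc5, none of the 12 was called in either knockout against wild-type, where 0.0231% of all genes were called in the Dgcr8 knockout and 11.3% in the Dicer knockout. Their differences ran from -0.17 to 0.47 in the Dgcr8 knockout and from -0.55 to 0.50 in the Dicer knockout.

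The ends of these ranges belonged to 2 genes. Nudt21, a pre-mRNA cleavage factor, had the lowest difference in the Dgcr8 knockout and the highest in the Dicer knockout. Nudt21 has 2 probe sets, and the brighter one, used here, varied widely, at 7.25, 8.09 and 8.74 in Dgcr8 knockout oocytes. The transcript 9330175E14Rik had the highest in the Dgcr8 knockout and the lowest in the Dicer knockout. It read 7.40, 7.68 and 7.52 in Dgcr8 knockout oocytes, 6.45, 6.64 and 6.45 in Dicer knockout oocytes, and 6.69, 7.48 and 7.02 in wild-type oocytes. Its difference of -0.55 between Dicer knockout and wild-type (limma adjusted p 0.0768) was called in 4 of 17 alternatives, namely with the floor at 6 (0.0491), with the mean of its probe sets (0.0306, difference -0.34), with replicate numbers as a block (0.0305) and without wild-type replicate 1 (0.0216). Without wild-type replicate 2 it was -0.34 (0.199). It was lower in Dicer knockout than in Dgcr8 knockout oocytes (log2 difference -1.03, limma adjusted p 0.00423).

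**Figure D4:**
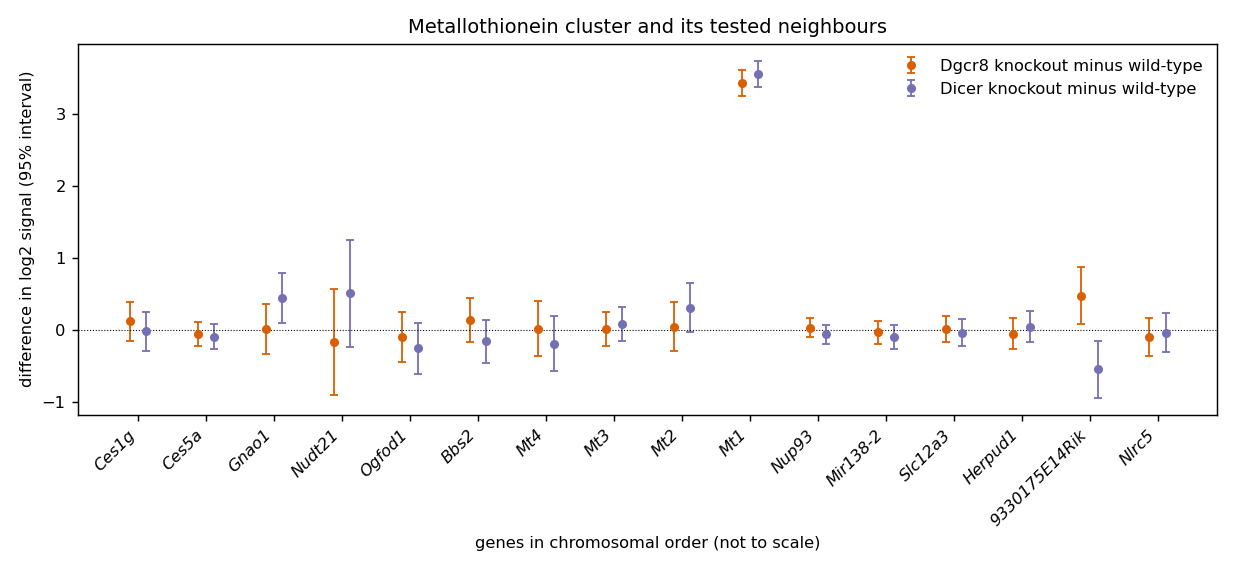
Difference in log2 signal (vertical axis, with 95% intervals) of the metallothionein genes and the 6 tested genes on either side of the cluster (horizontal axis, in gene order and not to scale), for each knockout against wild-type. Mt1 stands at 3.42 and 3.55, whereas its neighbours lie between -0.55 and 0.50.

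The genes whose signal ran most like that of Mt1 over the 9 arrays changed little. By Pearson correlation the 5 most alike were the tyrosine kinase Fer (r = 0.91), the adaptor Apbb2 (0.90), the SMN complex protein Gemin8 (0.89), the nucleotidase Nt5c1a (0.88) and the SUMO protease Senp5 (0.87). These values are given as a description over 9 arrays of 3 genotypes, in which any gene that separates both knockouts from wild-type gives a high r. Fer, the first of them, read 7.75, 7.75 and 7.76 in Dgcr8 knockout oocytes, 7.85, 7.76 and 7.95 in Dicer knockout oocytes, and 7.42, 7.56 and 7.54 in wild-type oocytes, differences of 0.24 and 0.35. Only the second of these was called (limma adjusted p 0.0258), and that call was lost without any 1 wild-type array (0.0573 to 0.103), without Dicer knockout replicate 1 (0.0629) or 3 (0.0711), with the fit on the 6 arrays of these groups (0.0615) and with a block on the replicate number (0.0530). Among the members the correlation with Mt1 ran from -0.47 for Slc39a10 to 0.53 for Mtf1.

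Genes of copper, iron and stress handling, some of which respond to the same metals and oxidants that raise metallothioneins, had no call in the Dgcr8 knockout, where 0.0231% of all genes were called. These were 14 tested genes of copper handling, 20 of iron handling, 19 of oxidative and heavy metal stress and 10 of the glucocorticoid response, a hormone signal known to raise Mt1. Their median differences there were -0.01, 0.01, -0.02 and -0.02, in that order. In the Dicer knockout 3 of 14 copper genes were called higher and none lower, 3 of 20 iron genes higher and 1 lower, 2 of 19 stress genes higher and 1 lower, and 1 of 10 glucocorticoid genes higher, against 4.87% called higher and 6.47% called lower over all genes. Hmox1 stands in both the iron and the stress list.

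Among the copper genes, the copper chaperone Atox1 read 7.67, 8.15 and 8.07 in Dgcr8 knockout oocytes, 9.49, 9.53 and 9.52 in Dicer knockout oocytes, and 8.17, 7.77 and 7.95 in wild-type oocytes. Atox1 rose 2.93-fold in the Dicer knockout, a log2 difference of 1.55 ± 0.14 (SE; limma adjusted p 7.63e-05), and its Dicer knockout arrays did not overlap the others. Sco1, which carries copper to cytochrome oxidase, rose by 0.87 (limma adjusted p 0.00187). The copper transporter Slc31a2 rose by 0.36 (0.0392), a call lost in 11 of 17 alternatives, among them without any 1 wild-type array (0.0737 to 0.129), without Dgcr8 knockout replicates 1 (0.0570) or 2 (0.0561) and without Dicer knockout replicates 1 (0.0594) or 3 (0.0792).

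Among the iron and stress genes, the haem oxygenase Hmox1, a classic responder to heavy metals and oxidants, read 5.30, 5.53 and 5.38 in Dgcr8 knockout oocytes, 6.75, 6.68 and 7.08 in Dicer knockout oocytes, and 5.48, 5.52 and 5.74 in wild-type oocytes. Hmox1 rose by 1.25 ± 0.12 (SE) in the Dicer knockout (limma adjusted p 0.000157), whereas its Dgcr8 knockout difference was -0.18. The ferritin light chain Ftl1 rose by 1.19 and the transferrin receptor Tfrc by 1.03 (limma adjusted p 0.000676 and 0.00927). Aco1, which senses cellular iron, had a difference of -0.19 that missed the threshold (0.0767, and 0.0406 with quantile normalization) but was lower in Dicer knockout than in Dgcr8 knockout oocytes, by a log2 difference of -0.31 (0.00965). Pcbp1, an iron chaperone and the iron gene called lower, named after its value was seen, fell by 0.24 (0.0390). Its call was lost in 9 of 17 alternatives. Hamp, the iron hormone hepcidin, also named after its value was seen, read 6.25, 7.16 and 6.72 in Dgcr8 knockout oocytes, 5.52, 5.64 and 5.47 in Dicer knockout oocytes, and 6.80, 5.85 and 6.59 in wild-type oocytes. Its difference of -0.87 from wild-type missed the threshold (0.0618), but was called in 4 of 17 alternatives. The glutathione peroxidase Gpx1 rose by 1.60 ± 0.27 (SE; limma adjusted p 0.00444).

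Gclm, a subunit of the enzyme that starts glutathione synthesis, fell by 0.27 in the Dicer knockout (limma adjusted p 0.0203), a call lost without any 1 wild-type array (0.0634 to 0.0747), without Dicer knockout replicates 1 (0.0502) or 3 (0.0501) and with a block on the replicate number (0.0501). The kinase Sgk1, a glucocorticoid target, rose by 0.46 (limma adjusted p 0.00705).

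**Figure D5:**
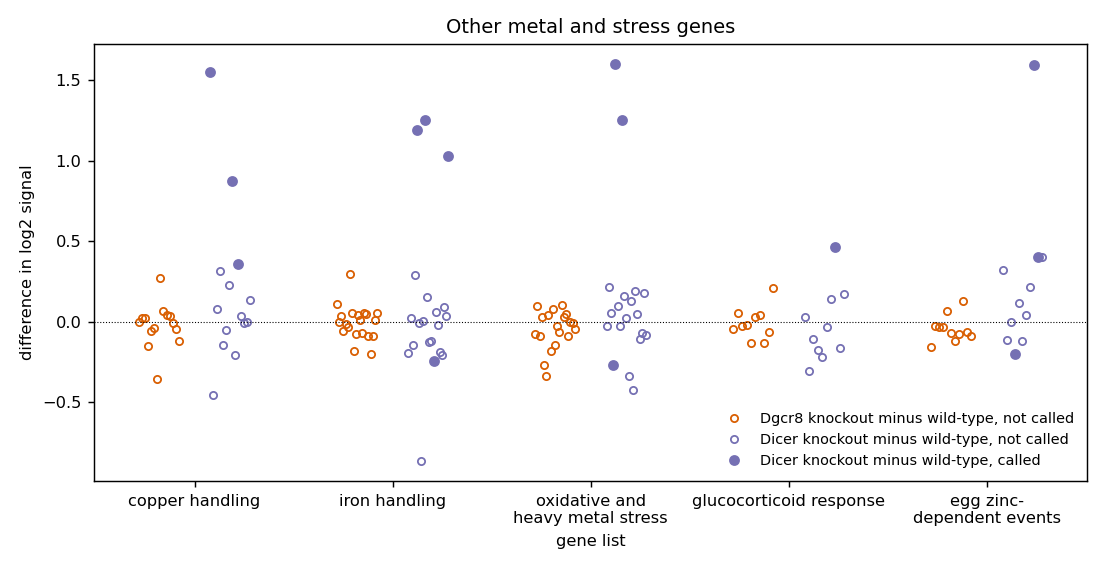
Difference in log2 signal (vertical axis) of every tested gene of 5 lists (horizontal axis) in each knockout against wild-type, with filled points for genes called at a limma adjusted p under 0.05. No point of the Dgcr8 knockout is filled, and the highest points of the Dicer knockout include Atox1 at 1.55, Hmox1 at 1.25, Gpx1 at 1.60 and Trpm7 at 1.59.

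Of 11 tested genes of egg events that depend on zinc or on the calcium signal of fertilization, none was called in the Dgcr8 knockout, against 0.0231% of all genes, and 2 were called higher and 1 lower in the Dicer knockout, against 4.87% and 6.47% of all genes. Trpm7, a channel that passes divalent cations, read 7.63, 7.21 and 7.78 in Dgcr8 knockout oocytes, 9.21, 8.72 and 9.09 in Dicer knockout oocytes, and 7.40, 7.44 and 7.39 in wild-type oocytes. Its Dicer knockout arrays stood apart from the rest, with a rise of 1.59 ± 0.16 (SE; limma adjusted p 0.000185). Zp2, a zona pellucida protein cleaved after fertilization, rose by 0.40 (0.0199), a call lost without wild-type replicate 3 (0.0843) or Dicer knockout replicates 1 (0.0750) or 2 (0.0587). Zp3, its partner in the zona pellucida, had a difference of 0.40 that did not pass the test (0.0768). It was called with the floor at 6 (0.0468) and without Dicer knockout replicate 3 (0.0129, difference 0.55).

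Fbxo43, the zinc-binding inhibitor that holds the egg at metaphase II, read 11.52, 11.38 and 11.47 in Dgcr8 knockout oocytes, 11.26, 11.22 and 11.39 in Dicer knockout oocytes, and 11.51, 11.52 and 11.44 in wild-type oocytes. It fell by 0.20 ± 0.05 (SE; limma adjusted p 0.0397), and the call was lost in 10 of 17 alternatives. These left out Dgcr8 knockout replicate 3 (0.0602), Dicer knockout replicate 1 (0.120) or 2 (0.103) or any 1 wild-type array (0.0668 to 0.134), or used the replicate block (0.0616), eBayes without trend and robust (0.123), the 6 arrays of these groups (0.0687) or every probe set on its own (0.0656).

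Markers of the egg and of neighbouring cells were read on the same arrays. The array medians of the cumulus and granulosa markers were 4.76 to 4.97 (log2 signal), and those of the immune and blood markers 4.48 to 4.90. Both lie close to the floor of 4, so that the sums of these lists include many weak signals. The summed linear signal of 26 cumulus and granulosa markers ranged from 1905 to 2066 in Dgcr8 knockout, from 1752 to 1980 in Dicer knockout and from 1875 to 1983 in wild-type arrays. That of 14 immune and blood markers ranged from 1057 to 1185, from 974 to 1180 and from 946 to 1071 in the same order. That of 23 oviduct markers ranged from 4012 to 4205, from 3715 to 3746 and from 4036 to 4214, and so was lowest in the Dicer knockout, where Myh11, a smooth muscle myosin, fell by 0.46 (limma adjusted p 0.00567). The cumulus marker Gata4 rose by 0.59 and the macrophage marker Cd68 by 0.96 in the Dicer knockout (limma adjusted p 0.0140 and 0.0110), and both calls were lost without wild-type replicate 3 (0.0562 and 0.0507). Gata4, Cd68 and Myh11 were each the only call of their list there, against 11.3% of all genes. They were 1 of 24 tested cumulus and granulosa, 1 of 11 immune and blood and 1 of 21 oviduct markers. The median differences of these lists were -0.03, 0.06 and -0.06, and 9 of the 24 cumulus and granulosa markers were above 0. No marker of these 3 lists was called in the Dgcr8 knockout, against 0.0231% of all genes, and the part of other cells in the Mt1 signal was not tested. The 22 oocyte markers had 4 called higher in the Dicer knockout, against 4.87% of all genes, namely Zp2, Khdc3 of the subcortical maternal complex (1.14, limma adjusted p 0.0422), the germ cell helicase Ddx4 (0.62, 0.0250) and, named after its value was seen, the transcription factor Nobox (0.24, 0.0353), and none called in the Dgcr8 knockout. The Khdc3 call was lost in 10, the Ddx4 call in 4 and the Nobox call in 12 of the 17 alternatives. Khdc3 and Ddx4 lost it with Dicer knockout replicate 1 left out (0.146 and 0.0785) and with wild-type replicate 3 left out (0.151 and 0.100), among others.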

How the data were processed

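The authors deposited 1 table of log2 signals per probe set and array, made with GCRMA per the submitters' processing notes. GCRMA corrects the background, normalizes between arrays and summarises probes. No version or setting of it is stated in the labels. Values ranged from 1.05 to 13.3 and array medians from 5.48 to 5.58, and nothing was normalized further. Of 35557 probe sets the platform annotation names 1 gene for 21789, several for 1621 and leaves 12147 unnamed here. Each gene was represented by its probe set with the highest mean, and 17324 genes with a signal of at least 4 in at least 3 arrays were tested.

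The fit used limma 3.58.1 under R 4.3.3 (statmod 1.5.0), with trend and robust eBayes, two-sided, over all 9 arrays with no covariates. Genes were called at 0.05 after Benjamini-Hochberg adjustment across the 17324 genes. The script was tested on simulated data. With 9 arrays, a difference had a 95% interval of 0.23 on either side at the median. The RefSeq table (GRCm38.p6) served for names, gene order and promoters, and the Slc39a6 promoter was not used here. Members and gene lists were chosen with earlier results of these data known. Named were all members, Dgcr8 and Dicer1, at most 4 called genes per list by adjusted p, 6 tested neighbours on each side of the metallothionein cluster, and the 5 genes most correlated with Mt1. Slc30a3, Slc30a7, Pcbp1, Hamp and Nobox were named after their values were seen. The 17 alternatives per comparison changed the floor, scaling, choice of probe set, eBayes settings, arrays fitted and a block on the replicate number, or left out 1 array.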

Additional observations from a re-analysis of the deposited data

Results flagged for a closer look

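The genes below were picked out because their change in the Dicer knockout differed from that in the Dgcr8 knockout, tested as the difference between the 2 knockouts, in which the wild-type arrays cancel. Of all genes tested, 13.4% pass this test, so that passing it is common. The genes of the other lists were named by their smallest adjusted p over the 3 comparisons, of which this is 1. Their passing was thus partly fixed by the choice, and the share of 13.4% is no yardstick for them. Among the zinc genes it was passed by Slc39a10, with a Dicer knockout minus Dgcr8 knockout difference of -0.25 (log2, limma adjusted p 0.00550). The targeted genes passed it too, Dgcr8 with 2.74 and Dicer1 with -0.96.

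Of the copper, iron, stress and glucocorticoid genes, Atox1 had a difference of 1.55, Sco1 of 0.60, Hmox1 of 1.43, Ftl1 of 1.21, Tfrc of 0.98, Aco1 of -0.31, Hamp of -1.16, Gpx1 of 1.87, Gclm of -0.29 and Sgk1 of 0.59. Of the egg genes, Trpm7 had 1.46, Zp2 0.47, Zp3 0.49, Khdc3 1.43, Nobox 0.24 and Ddx4 0.59. Of the markers of other cells, Gata4 had 0.44, Cd68 0.68 and Myh11 -0.48. Of the neighbours of the metallothionein cluster, 9330175E14Rik had -1.03. Of the 17 alternatives, this difference lost its call for Gata4 in 13, Cd68 and Nobox in 10 each, Zp3 in 8, Ddx4 in 5, and Khdc3 and Hamp in 3 each.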

How the results depend on the processing

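Mt1 was called in both knockouts against wild-type under all 17 alternatives, with differences of 3.36 to 3.47 in the Dgcr8 knockout and 3.48 to 3.64 in the Dicer knockout. Slc39a10 was called in both comparisons of the Dicer knockout under all 17, with differences from wild-type of -0.33 to -0.22. The members called stayed at 1 in the Dgcr8 knockout and 2 in the Dicer knockout throughout. Against the Dgcr8 knockout, the Dicer knockout had 2 of 9 tested members called with the floor at 6. With that floor 2591 of 10181 genes were called in this comparison. With 1 array left out, 1 to 2 of 10 members were called. The second member was Slc39a1, called without Dicer knockout replicate 3 (limma adjusted p 0.0396) and with the floor at 6 (0.0437). Without Dicer knockout replicate 3, 2127 of 17286 genes were called. Over all genes, the calls in the Dgcr8 knockout (4) ranged from 2 to 5, with 2 without wild-type replicate 1, without any 1 Dgcr8 knockout array and with the fit on the 6 arrays of these groups. Those in the Dicer knockout (1964) were 1332 without wild-type replicate 2, 1386 without wild-type replicate 1 and 1238 without wild-type replicate 3. They rose to 2196 with the floor at 6, where only 10181 genes were tested, and to 2467 with quantile normalization. Those between the knockouts (2321) were 1511 without Dgcr8 knockout replicate 1, and 2879 with quantile normalization. With every probe set on its own, which counts probe sets, 2477 and 2932 were called in these comparisons of the Dicer knockout. Same-numbered arrays of different genotypes had deviations from their group means that correlated at -0.24 to 0.11, against -0.16 to 0.25 for other pairs, and 1 of 9 arrays correlated best with its own number, so the numbers were not taken as pairs. With a replicate block the members called were 1, 2 and 1 in the 3 comparisons, and all genes called were 3, 1797 and 2105. With the floor at 6, Mt2 was not tested. Its low signal limits what these arrays show of it.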
